A study of Mus musculus with 12 samples.

Results

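The 10 genes described here mark the Purkinje cell, the large GABAergic neuron that carries the output of the cerebellar cortex. They are Pcp2, Calb1, Car8, Itpr1, Slc1a6, Ppp1r17, Rgs8, Homer3, Pcp4 and Dner. Every array probe whose gene name was one of these was taken, which gave 16 probes for the 10 genes, among 34891 probes with a gene name and 41174 probes in all. The genes were taken for what they are known to mark, with earlier results of these data known.

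Purkinje cells receive glutamate from parallel fibres and climbing fibres, and much of their slow response runs through the G protein Gq and phospholipase C beta to inositol trisphosphate (IP3). IP3 opens the calcium channel encoded by Itpr1 in the endoplasmic reticulum, and calcium-binding proteins then shape the calcium signal. Several of the 10 genes are also active in hippocampal neurons, Calb1 in granule and CA1 cells and Pcp4 in CA2 cells among them, so they differ in how closely they mark the Purkinje cell in a comparison of the 2 tissues.

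The arrays measured RNA from the dissected cerebellum and hippocampus of adult mice, 3 to 5 months old and of both sexes. En2WT mice were wild type, and En2KO mice (En2-/-, allele En2tm1Alj) lacked the homeobox of the transcription factor Engrailed-2 in every cell. Both were littermates from heterozygous matings of a line that began on a mixed 129Sv and C57BL/6 and outbred background and was crossed at least 5 times to C57BL/6. Each of the 4 groups of tissue and genotype held 3 arrays, 12 in all, from 3 mice per genotype, and the labels do not tie the 2 tissues to the same mouse. Each of the 3 slides carried 1 array of every group, and the replicate number names the slide. The fit therefore measures the spread between 3 arrays per group. On every slide, positions 1 and 2 held En2WT and En2KO cerebellum, and positions 3 and 4 held En2WT and En2KO hippocampus. Position on the slide therefore cannot be told apart from tissue and genotype.

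On the hippocampal arrays 62.3 to 67.0% of spots were well above background, and on the cerebellar arrays 67.8 to 73.0%, so the tissues did not overlap. No spot was saturated, and 110 to 331 spots per array were left out as outliers. The En2 probe (A_51_P397876) reads a 3′ part of the transcript that the deletion leaves in place, so it does not check the genotype. Its log2 intensity in the cerebellum was 14.06, 13.80 and 14.61 in En2WT and 14.08, 14.81 and 14.50 in En2KO. The 2 genotypes overlapped. Intensities below are log2 values after quantile normalization, and a difference of 1 is a change of the signal by a factor of 2. A probe was called where limma's p-value, adjusted by Benjamini and Hochberg over all named probes tested in that comparison, was below 0.05.

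6 of the genes had 2 probes each. The sequences of 2 such pairs are shown because their probes gave different sizes of change. The Pcp2 probes share the 19 bases in capitals and are therefore not independent readings. The first spans an intron (chr8:3623540-3624548, mm9, minus strand), and the second lies in 1 block (chr8:3623499-3623558).
A_51_P448677: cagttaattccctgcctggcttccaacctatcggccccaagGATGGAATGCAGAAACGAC
A_52_P643832: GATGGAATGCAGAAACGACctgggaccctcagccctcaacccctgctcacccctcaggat

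The Car8 probes start 2159 bases apart in the transcript. Their first 30 bases are given, for the probe nearer the 5′ end (chr4:8072704-8072763, minus strand) and then for the one further 3′ (chr4:8070545-8070604).
A_52_P625118: tggcatatctgaatgtatggcttctaagga
A_51_P392005: atctgattcagaatagaaacattactgtgt

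Promoter windows from RefSeq (GRCm38.p6) were found for 6 of the 10 genes, Pcp2, Slc1a6, Rgs8, Homer3, Pcp4 and Dner, in 11 windows. They were searched on both strands for AGGTCA, a half-site that several nuclear receptors share. RORA, which Purkinje cells need for their development, is 1 of these. The bases beside the match were not searched, so a match is not a RORA site in particular. In the 250 bases before the start, 7 of the 11 windows held AGGTCA, against 14% of all 32851 windows. They belong to 5 of the 6 genes (Dner, Homer3, Pcp2, Pcp4 and Rgs8), and the share over all genes was not computed. Several windows of Pcp2 overlap and 2 of them hold the same match. TAATTA, the core letters of many homeodomain sites, stood in 1 of the 11 windows, at a start of Pcp2, against 4.84% of all windows. The Pcp2 window with its match 12 bases before the start (chr8:3625548-3625797, minus strand) and the Pcp4 window with its match 164 bases before the start, on the opposite strand (chr16:96467356-96467605, plus strand), are shown with the matches in capitals.
Pcp2: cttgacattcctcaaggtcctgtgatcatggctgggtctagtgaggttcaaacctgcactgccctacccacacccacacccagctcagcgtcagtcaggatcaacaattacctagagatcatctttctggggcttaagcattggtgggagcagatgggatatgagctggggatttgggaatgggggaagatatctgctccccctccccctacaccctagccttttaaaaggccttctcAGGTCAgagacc
Pcp4: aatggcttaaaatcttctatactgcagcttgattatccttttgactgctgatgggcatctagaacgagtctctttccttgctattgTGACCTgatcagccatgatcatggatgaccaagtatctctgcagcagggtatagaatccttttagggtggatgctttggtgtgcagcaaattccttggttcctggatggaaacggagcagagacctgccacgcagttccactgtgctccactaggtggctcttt

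The first comparison asked how far the 10 genes separated the cerebellum from the hippocampus. In En2WT mice, all 15 member probes that could be tested were called higher in the cerebellum, where 12.1% of the 25085 probes tested were called higher. In all 15 the 3 cerebellar arrays lay above the 3 hippocampal arrays, against 21.8% of all probes tested. The leading Dner probe (A_51_P278368) was not tested, because 2 of its 3 cerebellar En2WT spots were outliers. In En2KO mice, 15 of 16 member probes were called higher, against 12.6% of 24806 probes, and the same 15 did not overlap between tissues, against 22%. The median difference over the members was 2.29 in En2WT and 1.93 in En2KO, and over all probes 0.03 and 0.01.

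**Figure D1:**
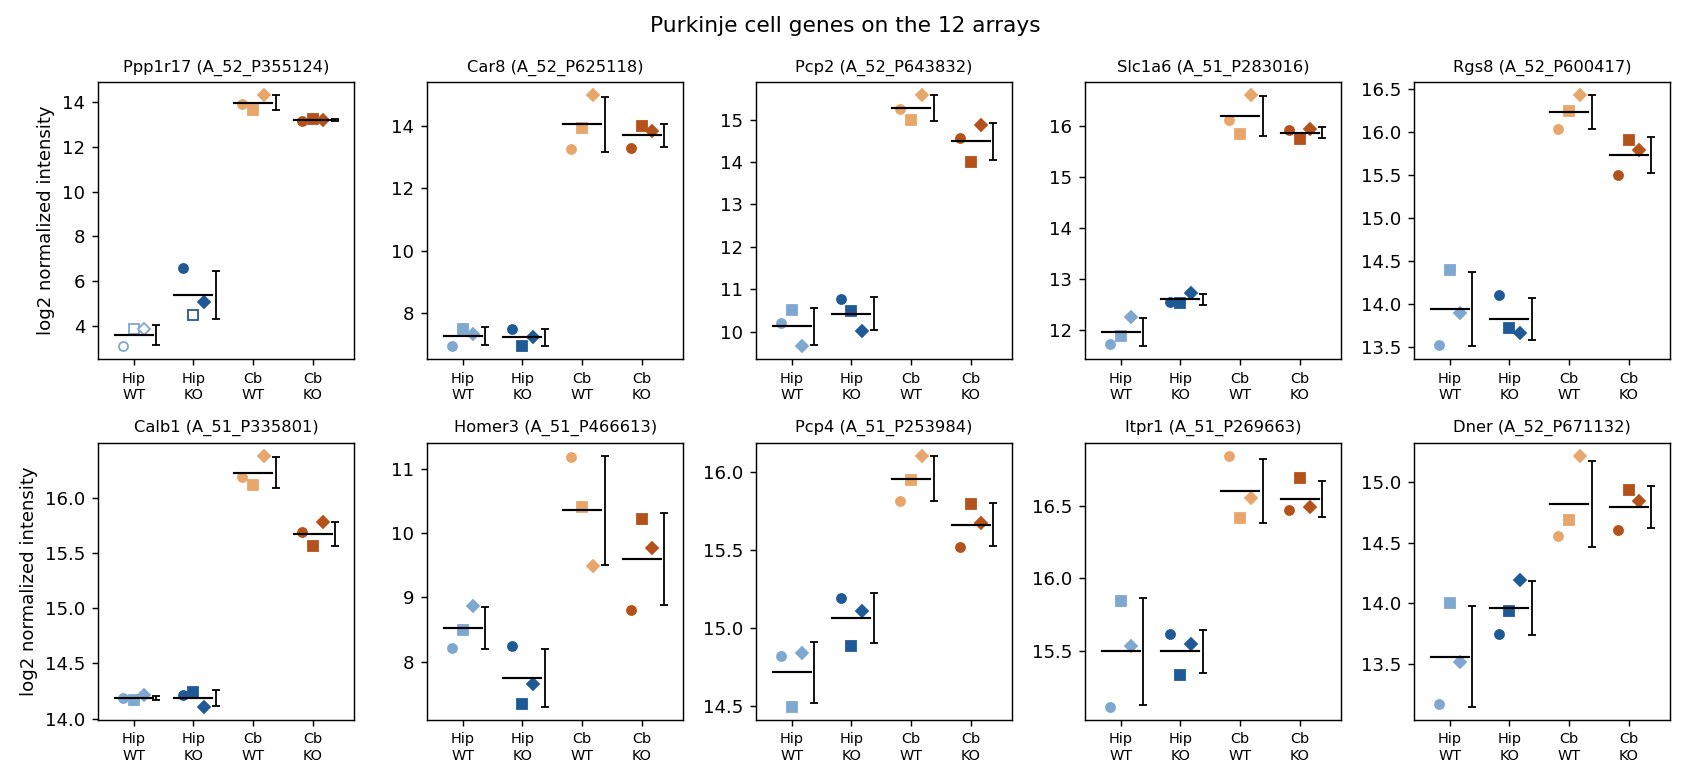
Log2 normalized intensity (y axis) of 1 probe per gene on each of the 12 arrays, by tissue (Hip, hippocampus; Cb, cerebellum) and genotype (x axis), with the scale set for each gene. Circle, square and diamond are slides 1, 2 and 3, hollow points are not well above background, bars are means and error bars 1 SD (n = 3). All 10 genes stand higher in the cerebellum, with differences in En2WT from 10.38 for Ppp1r17 to 1.11 for Itpr1.

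Ppp1r17 encodes the G-substrate, a phosphatase inhibitor that is phosphorylated by cyclic GMP-dependent protein kinase. In En2WT mice its leading probe (A_52_P355124, chr6:55982358-55982417) read 13.92, 13.67 and 14.32 in cerebellar RNA and 3.08, 3.85 and 3.85 in hippocampal RNA. None of those hippocampal arrays was well above background, so the difference of 10.38 (SE 0.29, adjusted p = 3.20e-07) includes values near background. Where lower, they were raised to the lowest value of any probe well above background on that array. The cerebellum was then 744-fold higher. A probe can need a higher value to pass, so this is not a strict lower bound. The second probe (A_51_P318430) gave 315-fold in the same way.

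Car8 encodes a carbonic anhydrase-related protein that binds the IP3 receptor and lowers its affinity for IP3. Its leading probe read 13.26, 13.92 and 15.00 in En2WT cerebellum, against 6.92, 7.49 and 7.32 in En2WT hippocampus. The difference was 6.82 (SE 0.41, adjusted p = 1.37e-05). In En2KO mice it was 6.50 (SE 0.25, adjusted p = 1.00e-05). The probe further 3′ differed by 6.93 in En2WT and by 6.48 in En2KO, where no hippocampal array was well above background. With those hippocampal values raised as for Ppp1r17, the cerebellum was 30.1-fold higher.

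Pcp2, also called L7, encodes a modulator of Gi and Go signalling. Its leading probe (A_52_P643832) read 15.25, 14.99 and 15.59 in En2WT cerebellum, against 10.21, 10.50 and 9.65 in En2WT hippocampus, a difference of 5.15 (SE 0.28, adjusted p = 7.98e-06). The overlapping probe (A_51_P448677) read 15.04, 14.77 and 15.27 against 6.37, 6.30 and 6.13, a difference of 8.76 (SE 0.22, adjusted p = 3.20e-07). The 2 probes thus differed by 3.60 in the size of the regional difference, and the within-array differences of the probes did not overlap between the tissues. The pair was chosen for this difference, which is therefore given without a test. Both put Pcp2 higher in the cerebellum.

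Slc1a6 encodes EAAT4, the glutamate transporter of Purkinje cell dendrites and spines. Its probe (A_51_P283016, chr10:78277447-78277506) read 16.11, 15.84 and 16.60 in En2WT cerebellum, against 11.71, 11.88 and 12.26 in En2WT hippocampus. The difference was 4.24 (SE 0.27, adjusted p = 1.74e-05), and in En2KO mice 3.27 (SE 0.16, adjusted p = 2.59e-05).

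The other 6 genes differed less between the tissues. Rgs8, a regulator of G protein signalling, differed by 2.29 (SE 0.27) in En2WT on its leading probe, and Calb1, which encodes the calcium buffer calbindin, by 2.04 (SE 0.20). Homer3, a postsynaptic scaffold that binds the IP3 receptor, differed by 1.83 (SE 0.41), with 11.18, 10.41 and 9.49 in cerebellar against 8.21, 8.49 and 8.87 in hippocampal RNA. Its annotated gene overlaps the end of Ddx49 on the other strand in RefSeq, and its probe (chr8:72817724-72817783) reads the plus strand, that of Homer3. Pcp4, a regulator of calmodulin, differed by 1.24 (SE 0.21). Itpr1 differed by 1.11 (SE 0.25) on its leading probe and by 1.78 (SE 0.22) on the other, and Dner, a transmembrane ligand of Notch, by 1.26 (SE 0.29) on the probe that could be tested. Their adjusted p-values ran up to 0.0139.

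In order of the En2WT difference on the leading probes (for Dner the probe tested), the 95% intervals of Ppp1r17, Car8 and Pcp2 did not touch one another, those of Pcp2 and Slc1a6 overlapped, and Slc1a6 lay above Rgs8, from 3.63 to 4.85 against 1.68 to 2.90. From Rgs8 down to Itpr1, each gene's interval overlapped that of its neighbour. The order depended on the probe, since the second Pcp2 probe, at 8.76 (8.26 to 9.26), lay above both Car8 probes and overlapped the second Ppp1r17 probe (8.98 to 10.32). The Ppp1r17 intervals take hippocampal values not well above background at their measured level. With hippocampal En2WT replicate 1 left out, Homer3, Dner and Itpr1 (leading probe) lost the call, at adjusted p of 0.0548, 0.0583 and 0.057. Itpr1 also lost it with cerebellar En2WT replicate 1 left out, at 0.0523. Without the hippocampal array, the 12 called probes were those of the other genes and the second Itpr1 probe.

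In En2KO mice, Pcp4 came closest to losing its regional difference among the leading probes. It read 15.52, 15.79 and 15.67 in cerebellar against 15.19, 14.89 and 15.11 in hippocampal RNA, a difference of 0.60 (SE 0.17, adjusted p = 0.0440). With the slide as a fixed block the adjusted p was 0.0937, and without any 1 of the 6 arrays it ran from 0.0565 to 0.145. Scaling each array by its 75th percentile gave 0.31 (adjusted p = 0.237), a change of over 1.5 times. In En2KO, Homer3 and Dner (A_52_P671132) lost the call with cerebellar replicate 3 left out, at adjusted p of 0.0578 and 0.0773, and Dner also with hippocampal replicate 2 left out, at 0.0601. The member probe that was not called was the lower-signal probe of Rgs8 (A_52_P635598), at 8.01, 7.60 and 8.22 in cerebellar against 7.38, 7.71 and 7.37 in hippocampal RNA, a difference of 0.46 (SE 0.22, adjusted p = 0.170). On slide 2 that probe was lower in the cerebellum, the only 1 of 48 within-slide differences in En2KO below 0. In En2WT all 45 within-slide differences were above 0.

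**Figure D2:**
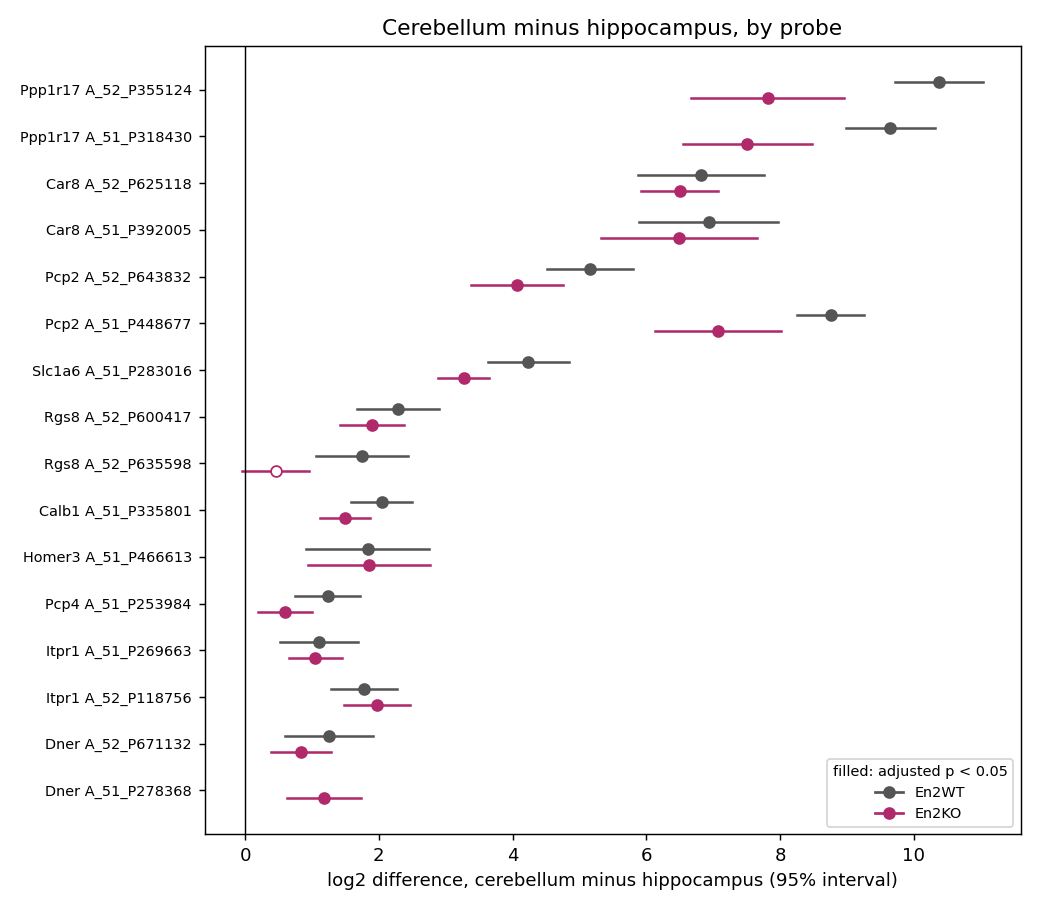
Log2 difference of cerebellum minus hippocampus (x axis) with its 95% interval for each member probe (y axis), in En2WT (grey) and En2KO (magenta), from limma on 6 arrays each. Filled points passed adjusted p of 0.05. All points lie above 0, and Rgs8 probe A_52_P635598 in En2KO, at 0.46, is the hollow one.

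The second comparison asked whether the cerebellum of En2KO mice held less of the Purkinje cell transcripts. 1 of the 15 member probes tested passed the test, the Car8 probe further 3′, where 0.579% of 25053 probes were called in either direction. All 15 differences were below 0, and their median was -0.52, while over all probes the median was -0.003 and 50.3% were below 0. In 8 of the 15 the En2KO arrays all lay below the En2WT arrays, against 13.6% of all probes that did not overlap in either direction. 7 of the 15 had an unadjusted p below 0.05, against 8% of all probes tested. The members share the same 6 arrays and the same cells, so they are not independent readings. In whole cerebellum, fewer Purkinje cells and less RNA per Purkinje cell cannot be told apart.

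**Figure D3:**
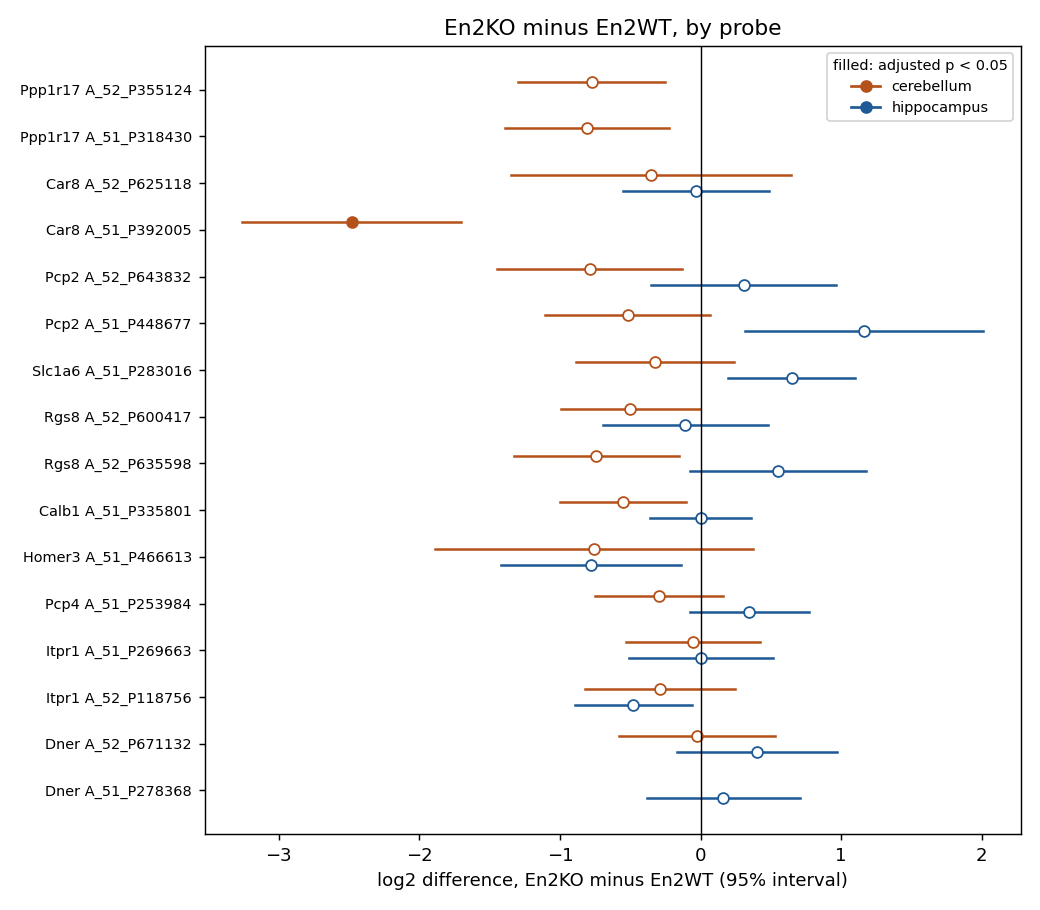
Log2 difference of En2KO minus En2WT (x axis) with its 95% interval for each member probe (y axis), in cerebellum (orange) and hippocampus (blue), from limma on 6 arrays each. Filled points passed adjusted p of 0.05, and a probe that was not tested has no point. All 15 cerebellar points lie below 0, and Car8 probe A_51_P392005, at -2.48, is the filled one.

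The Car8 probe further 3′ (A_51_P392005) read 11.49, 12.55 and 12.27 in En2WT cerebellum and 9.13, 9.77 and 9.95 in En2KO cerebellum. Every En2KO array lay below every En2WT array, and on each slide the En2KO array was lower, by -2.36, -2.77 and -2.32. It fell by 2.48 on the log2 scale (SE 0.34, adjusted p = 0.0243), to 0.179 of the En2WT signal. The leading Car8 probe read 13.29, 14.00 and 13.84 in En2KO and 13.26, 13.92 and 15.00 in En2WT, a difference of -0.35 (SE 0.43, adjusted p = 0.929), and the groups overlapped. Slide 3 gave -1.16, and slides 1 and 2 gave 0.03 and 0.07. The genotype differences of the 2 probes differed by -2.13, and the within-array differences of the probes did not overlap between the genotypes. This pair, too, was chosen for its difference and has no test. The call of the 3′ probe was lost in 8 of 18 alternatives, among them 5 of the 6 that left out 1 array, all except En2WT replicate 1, with adjusted p from 0.0802 to 0.109 and differences from -2.24 to -2.65. The rank product, the statistic that the study's methods name, called this member probe alone at the study's limit of 0.01, where it called 4.43% of all probes. Its uncorrected P by 100 permutations was 1.20e-06. The permutations shuffle each array's values over probes, so this P does not measure a probe's spread between arrays. In earlier simulated arrays with no gene changed, the rank product had called many genes, and limma was therefore the main test.

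**Figure D4:**
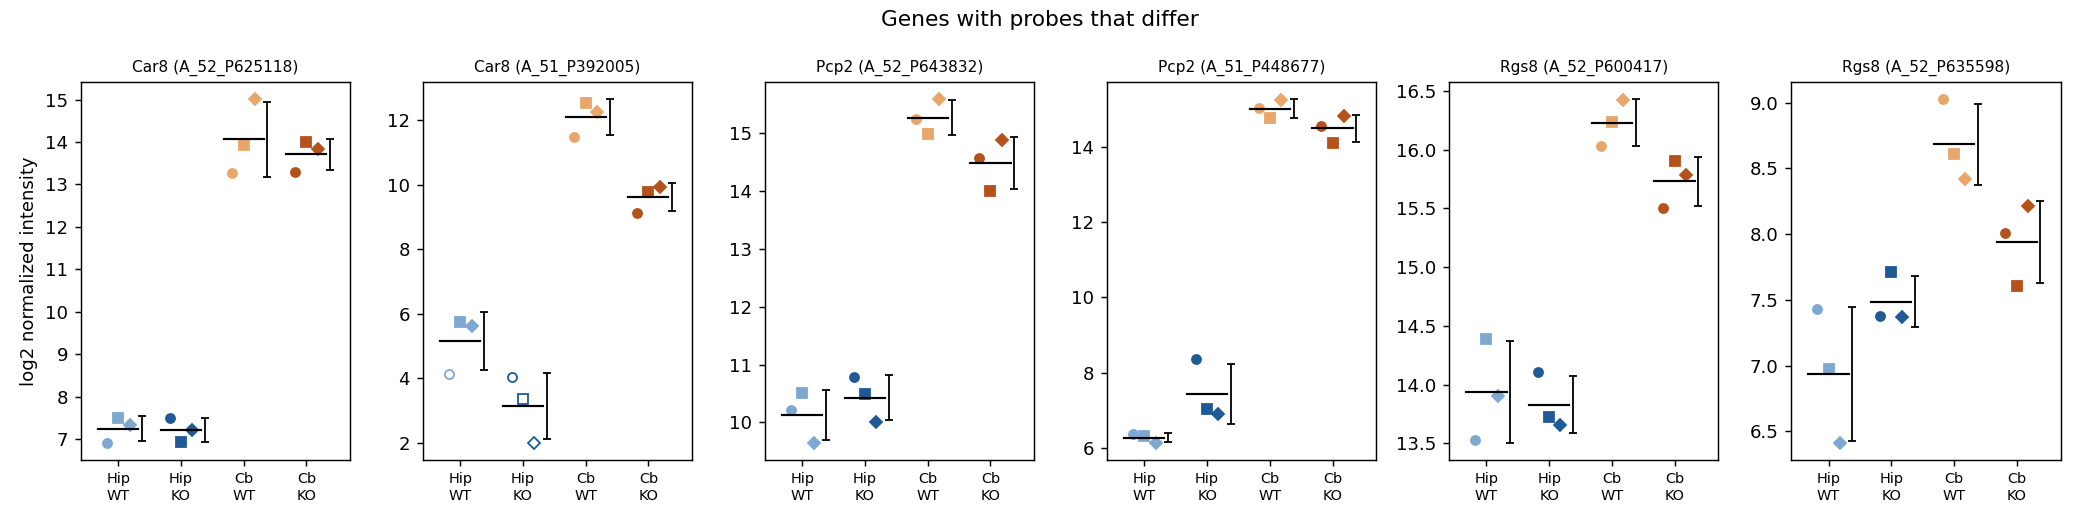
Log2 normalized intensity (y axis) of both probes of Car8, Pcp2 and Rgs8 on each of the 12 arrays by tissue and genotype (x axis), with symbols, bars and error bars as in the plot of the 10 genes (n = 3). The 3′ Car8 probe separates the genotypes in the cerebellum, with a difference of -2.48, while the leading Car8 probe overlaps.

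The differences that follow did not pass the adjusted test and are given as values. Ppp1r17 read 13.92, 13.67 and 14.32 in En2WT and 13.14, 13.24 and 13.21 in En2KO cerebellum, a difference of -0.77 (SE 0.23, adjusted p = 0.349), and its second probe differed by -0.81 (SE 0.25). Neither probe overlapped between genotypes. Pcp2 read 15.25, 14.99 and 15.59 in En2WT and 14.58, 14.00 and 14.88 in En2KO, a difference of -0.79 (SE 0.28, adjusted p = 0.511). Its arrays did not overlap on the leading probe, and on the overlapping probe the difference was -0.52 (SE 0.25) with 1 pair of arrays crossing.

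Calb1, whose probe stands on the array in 10 spots that were averaged, read 16.19, 16.12 and 16.38 in En2WT and 15.69, 15.56 and 15.78 in En2KO cerebellum. The genotypes did not overlap, the within-slide differences were -0.49, -0.56 and -0.61, and the fitted difference was -0.55 (SE 0.19, adjusted p = 0.489). Rgs8 read 16.03, 16.24 and 16.42 in En2WT and 15.50, 15.90 and 15.78 in En2KO, a difference of -0.50 (SE 0.21, adjusted p = 0.616), again with no overlap. Its second probe differed by -0.74 (SE 0.25) and did not overlap either. Pcp4 differed by -0.30 (SE 0.20), from 15.82, 15.95 and 16.10 to 15.52, 15.79 and 15.67, without overlap.

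The remaining members overlapped between genotypes in the cerebellum. Homer3 varied most within its groups, with 11.18, 10.41 and 9.49 in En2WT and 8.81, 10.21 and 9.77 in En2KO, a difference of -0.76 (SE 0.49). Slc1a6 differed by -0.32 (SE 0.24). Itpr1 differed by -0.05 (SE 0.21) on its leading probe and -0.29 (SE 0.23) on the other, and Dner by -0.03 (SE 0.24), with intervals of -0.53 to 0.43 for the leading Itpr1 probe and -0.58 to 0.53 for Dner.

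Some arrays held many of the extremes. En2WT replicate 3 was the highest of its group for 8 of the 10 genes. En2KO replicate 1 was the lowest of its group for 7, and En2KO replicate 2 the highest for 7. With En2WT replicate 3 left out, 13 of 15 differences were below 0 with a median of -0.40, and with En2KO replicate 1 left out, 14 of 15 with a median of -0.39. Within slides, 38 of 45 differences were below 0, in 13, 11 and 14 of the 15 probes on slides 1, 2 and 3. The mean of the 10 genes, each centred on its own average, was 1.81, 1.72 and 2.06 on the En2WT arrays and 1.25, 1.503 and 1.51 on the En2KO arrays.

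Genes of the same signalling pathway were taken from a list of 16, among them Gnaq, Gna11, Plcb3, Plcb4, Prkg1, Inpp5a, Itpka, Atp2b2, Atp2a2, Cacna1a, Cacna1g and Kcnma1. In the cerebellum, limma called 0 of the 15 tested between genotypes. 1 had an unadjusted p below 0.05, Itpka, which encodes a kinase of IP3, at -0.78 (SE 0.22, adjusted p = 0.334). 11 of the 15 were below 0, with a median of -0.22. Of a second list of 15 genes active in Purkinje cells, among them Pvalb, Gad1, Rora and Lhx1, 14 were tested, 0 were called, 0 had an unadjusted p below 0.05, and the median was -0.05 with 9 below 0. Aldoc, Plcb3, Plcb4 and Ebf2, which mark Purkinje cell stripes, are also counted in the lists above. Of these 4, 0 were called and 0 had an unadjusted p below 0.05, with 2 above 0 and 2 below 0. In share below 0 and in median, the 15 member probes stood further down than these lists. The units differ, since second probes count among the members and each list gene stands by 1 probe. With the mean of a gene's probes, 9 of the 10 members were below 0, with a median of -0.59. The lists were not tested against each other.

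Between tissues the pathway list was mixed. In En2WT 7 of 15 were called higher in the cerebellum and 2 lower, Itpka among them, with a median of 0.65. Plcb4, a phospholipase C beta, differed by 3.24 (SE 0.29, adjusted p = 0.000103). In the second list 11 of 14 were called higher and none lower, led by the transcription factors Lhx5 at 6.36 (SE 0.23), Lhx1 at 6.35 (SE 0.23) and Ebf2 at 4.82 (SE 0.59). In En2WT hippocampus Lhx1 was well above background on 2 of the 3 arrays and Ebf2 on 1, so these differences rest in part on values near background. Gad1, which interneurons of both tissues also express, differed by -0.01 (SE 0.26).

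Markers of other cerebellar cells were read beside these values. Of 10 granule cell genes, 0 were called between genotypes in the cerebellum, 0 had an unadjusted p below 0.05, 6 were below 0 and their median was -0.22. The summed level of these genes, on the log2 scale, ran from 18.15 to 18.47 in En2WT and from 18.08 to 18.10 in En2KO. Of 7 astrocyte and Bergmann glia genes, 0 were called, 4 were below 0, the median was -0.14, and 1 had an unadjusted p below 0.05. That gene was Gdf10, a marker of Bergmann glia, at -1.06 (SE 0.28, adjusted p = 0.286), further below 0 than every member probe except the 3′ Car8 probe. The list's summed level ran from 17.95 to 18.08 in En2WT and from 17.80 to 18.02 in En2KO. Limma called 0 genes between genotypes in the cerebellum among 6 oligodendrocyte, 5 microglia, 6 choroid plexus, 4 CA1 and CA3, 5 CA2 and 6 forebrain interneuron genes. The 6 choroid plexus genes were all above 0, with a median of 0.40, and 2 had an unadjusted p below 0.05. The part of these cells in the cerebellar differences was not tested.

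The third comparison set En2KO against En2WT in the hippocampus, which has no Purkinje cells. Limma called 0 of the 13 member probes tested, where it called 2.13% of 23770 probes. Over all probes that was 507 calls, and 134 with the slide as a fixed block, again with 0 members. 4 had an unadjusted p below 0.05, against 21.2% of all probes. 8 were above 0 and 5 below, with a median of 0.16, and in 4 the groups did not overlap, 3 higher and 1 lower in En2KO, against 27.8% of all probes. The members' counts were near the shares of all probes. By 100 permutations, the rank product called 1 member probe at the study's limit of 0.005, the Pcp2 probe A_51_P448677 (uncorrected P = 0.00202), where it called 4.24% of all probes.

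That Pcp2 probe read 6.37, 6.30 and 6.13 in En2WT and 8.36, 7.04 and 6.90 in En2KO hippocampus, a difference of 1.16 (SE 0.37, adjusted p = 0.138). All En2KO arrays lay above the En2WT arrays, and slide 1 held the largest step, at 1.99 against 0.74 and 0.76. The leading Pcp2 probe differed by 0.31 (SE 0.28), with overlap. Slc1a6 read 11.71, 11.88 and 12.26 in En2WT and 12.55, 12.52 and 12.72 in En2KO, a difference of 0.65 (SE 0.20, adjusted p = 0.129), without overlap. Pcp4 differed by 0.35 (SE 0.18) without overlap, and Itpr1 by -0.48 (SE 0.18) on its second probe without overlap and by 0.003 (SE 0.22) on its leading probe. Homer3 differed by -0.78 (SE 0.28, adjusted p = 0.173), from 8.21, 8.49 and 8.87 to 8.24, 7.34 and 7.66, with overlap through En2KO replicate 1. Calb1 read 14.18, 14.17 and 14.21 in En2WT and 14.22, 14.24 and 14.10 in En2KO, a difference of -0.0005 with a 95% interval of -0.36 to 0.36.

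3 member probes were too dim for the hippocampal test. The leading Ppp1r17 probe read 3.08, 3.85 and 3.85 in En2WT, where no array was well above background, and 6.60, 4.50 and 5.05 in En2KO, where replicates 1 and 3 were. Its second probe was well above background on 1 of the 3 En2KO arrays and on no En2WT array. The 3′ Car8 probe read 4.14, 5.74 and 5.63 in En2WT, with replicates 2 and 3 well above background, and 4.03, 3.37 and 2.01 in En2KO, with none. En2KO replicate 1 was the highest of its group for 7 of the 10 genes.

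Markers of neighbouring tissue were read beside the hippocampal values. All 5 thalamus genes, Tcf7l2, Lef1, Prkcd, Slc17a6 and Ntng1, were higher in En2KO hippocampus, by a median of 0.88, 0 of them called and 4 with an unadjusted p below 0.05. Their summed level ran from 12.72 to 13.20 in En2WT and from 13.62 to 14.07 in En2KO. Of the 10 granule cell genes of the cerebellum, 7 were tested, 0 were called and 2 had an unadjusted p below 0.05, and the summed level ran from 14.09 to 14.61 and from 14.28 to 14.62. Of these, Cbln3 and Fat2 were well above background on none of the 6 hippocampal arrays, and Gabra6 on 1 En2KO array. The 4 dentate granule cell genes were all lower in En2KO, by a median of -0.45, with 0 called and 2 with an unadjusted p below 0.05. The 6 choroid plexus genes were all lower in En2KO, by a median of -0.67, with 0 called. Their summed level ran from 14.60 to 15.91 in En2WT and was 16.62, 12.17 and 14.75 in En2KO. En2KO replicate 1, the highest of these, had the lowest CA1 and CA3 level of its group, at 14.99 against 15.78 and 15.79. The other lists of cell type markers also had 0 calls in the hippocampus. The 5 microglia genes had an unadjusted p below 0.05 each, 4 lower and 1 higher in En2KO, with a median of -0.80. Of the 4 CA1 and CA3 genes 3 were lower and 1 higher, with a median of -0.71 and 2 with an unadjusted p below 0.05. The part of other cells and of neighbouring tissue in the hippocampal differences was not tested.

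In the pathway list, 2 of 16 genes were called in the hippocampus, 1 higher and 1 lower in En2KO, and with the slide as a fixed block neither was called. 5 of the 16 were above 0 and 11 below, with a median of -0.14. Of the second list 0 of 14 were called and 2 had an unadjusted p below 0.05.

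The last comparison tested the difference between the 2 genotype effects directly, over all 12 arrays. Limma called 0 of 15 member probes, where it called 0.102% of 25481 probes. Over all probes that was 26 calls, and 15 with the slide as a fixed block, again with 0 members. 8 of the 15 had an unadjusted p below 0.05, against 11.3% of all probes, and 13 were below 0, which means a lower value in En2KO relative to En2WT in the cerebellum than in the hippocampus. The median was -0.55, against -0.02 over all probes. The differences furthest from 0 were those of the 2 Ppp1r17 probes, at -2.57 (SE 0.61, adjusted p = 0.225) and -2.14 (SE 0.54, adjusted p = 0.244), and both rest on hippocampal values near background. Pcp2 followed at -1.68 (SE 0.48) on A_51_P448677, then the second Rgs8 probe (A_52_P635598) at -1.29 (SE 0.39, adjusted p = 0.311), the leading Pcp2 probe at -1.09 (SE 0.43) and Slc1a6 at -0.97 (SE 0.31, adjusted p = 0.320). Pcp4 did not overlap in either tissue, lower in En2KO cerebellum and higher in En2KO hippocampus, with a difference of the effects of -0.64 (SE 0.25, adjusted p = 0.386). Homer3, with values below 0 in both tissues, gave 0.02 (SE 0.62). The 3′ Car8 probe, the 1 member probe called in the cerebellum, gave -0.45 (SE 0.76, adjusted p = 0.826). It too rests on hippocampal values near background, and its call in the cerebellum therefore does not show an effect particular to that tissue.

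Among the 5 genes outside the 10 whose values ran most closely with the members' mean over the 12 arrays were Ltbp2 (Pearson r = 0.997), Whrn (0.996), Slc6a2 (0.995) and Slc41a3 (0.994), among 20885 genes. These points share the 12 arrays and the 2 tissues, and correlations within a tissue were not computed. No filter on dim probes was used. Slc6a2 averaged 2.04 in En2WT and 2.12 in En2KO hippocampus, below the Ppp1r17 values there that were not well above background. Ppp1r17 itself ran with the mean at 0.994 and Homer3, the least alike of the members, at 0.835. The mean includes each member itself, and a member with a larger tissue difference weighs more in it. Ltbp2, a protein of the extracellular matrix, stood at 11.32 ± 0.38 (SD, n = 3) in En2WT cerebellum and 11.04 ± 0.33 in En2KO cerebellum, against 4.84 ± 0.61 and 5.45 ± 0.35 in the hippocampus.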

How the data were processed

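RNA from cerebellum and hippocampus of 3 mice per genotype was hybridised to Agilent one-colour 4x44K arrays. Per the file headers, the deposited intensity values are background-subtracted processed signals from Feature Extraction 10.7.3.1 with mm9 annotation, 1 file per array. The 2 tissues were extracted with different annotation versions, so gene names were taken from the cerebellum files. The authors also deposited log2 values made with Agi4x44PreProcess and quantile normalization, which were used as an alternative. They are normalized separately for each tissue.

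Control spots and outlier-flagged spots were left out, log2 intensities were quantile normalized over the 12 arrays and spots of a probe averaged. Testing required that 1 of the groups compared had the probe well above background on each of its 3 arrays, and values on 2 or more arrays of each group. Limma 3.58.1 (lmFit, eBayes; R 4.3.3) was fitted to the 6 arrays of each comparison, or to all 12 for the difference of the genotype effects, over all named probes, with Benjamini-Hochberg adjustment. Intervals are 95% and assume no shared error between arrays. The leading probe of a gene has the highest mean over the 12 arrays. For the mean over the 10 genes the second Dner probe was used, since the leading one lacks 2 values. Genes of the lists stand by their leading probe. Named from the lists were genes called between genotypes and the 3 with the largest En2WT tissue difference in each of the first 2 lists, and the genes most alike by Pearson correlation with the mean of the 10. Some genes that this rule names are not reported here. Itpka, Gad1, Gdf10, Cbln3, Fat2, Gabra6 and the thalamus genes were named after their values were seen. Gene names were matched to RefSeq (GRCm38.p6), with 30338 probes found under their symbol, 2612 through an accession and 677 through a former symbol. The scripts were tested on simulated data. The members and lists were chosen with earlier results of these data known. Alternatives were normexp with an offset of 50, 75th percentile scaling, the authors' values, other filters, other fits, the mean of a gene's probes, leaving out each array, the rank product with 100 permutations and a t-test of single probes, the test that the study names for its qPCR.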

Additional observations from a re-analysis of the deposited data

How the results depend on the processing

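Filters, fits and tests keep the group means and so every sign. Elsewhere the members' regional differences kept their direction. All 15 cerebellar genotype differences tested were below 0 with normexp or rescaling (16 of 16 with the authors' values). So were 9 of 10 genes with the mean of a gene's probes and 13 to 15 probes without any 1 array. The count of member probes called between genotypes in the cerebellum was 1, and it was 0 without a filter on dim probes, with all 12 arrays in the fit, with the mean of a gene's probes and with a t-test of each probe after adjustment, 6 with it unadjusted, and 0 to 1 without any 1 array. In the hippocampus it was 0, and it was 1 with the rank product, 2 with the unadjusted t-test and 0 to 0 without any 1 array. Without any 1 array the regional counts were 12 to 15 in En2WT and 12 to 14 in En2KO, and those of the difference of the effects 0 to 0. 75th percentile scaling left 13 in En2KO, with Dner at adjusted p of 0.0747. The cause of the lost calls was not tested.

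With the slide as a fixed replicate block, the member counts were 1 in the cerebellum, 0 in the hippocampus, 15 and 14 between tissues in En2WT and En2KO, and 0 for the difference of the effects. Among the member probes it ended the call of Pcp4 in En2KO alone. Correlations of same-slide deviations ran from -0.29 to 0.27. Slide 1 was above 0 in both regional comparisons, at 0.27 and 0.12, but no comparison had all 3 slides over 0.1, so slide numbers were not taken as pairs. The authors' values, normalized within each tissue, were not run for the regional comparisons.

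Some uncalled values turned sign. In the hippocampus, normexp gave Calb1 0.0097, Car8 (A_52_P625118) 0.0104 and Itpr1 (A_51_P269663) -0.0636, the authors' values gave Calb1 0.067, Car8 0.0033 and Itpr1 -0.045, and 75th percentile scaling gave Calb1 0.23 and Rgs8 (A_52_P600417) 0.10. In the difference of the effects, normexp gave Homer3 -0.0057 and 75th percentile scaling Itpr1 (A_52_P118756) -0.15. Without any 1 array, the cerebellar genotype difference ran from -0.15 to 0.067 for Itpr1 (A_51_P269663), from -0.75 to 0.12 for Car8 (A_52_P625118) and from -0.16 to 0.17 for Dner (A_52_P671132). The hippocampal difference ran from -0.19 to 0.18 for Itpr1 (A_51_P269663), from -0.27 to 0.16 for Plcb4, from -0.20 to 0.10 for Car8 (A_52_P625118), from -0.32 to 0.12 for Rgs8 (A_52_P600417) and from -0.027 to 0.041 for Calb1. The difference of the effects ran from -1.01 to 0.066 for Car8 (A_51_P392005), from -0.23 to 0.14 for Itpr1 (A_51_P269663), from -0.42 to 0.43 for Homer3 and from -0.72 to 0.15 for Car8 (A_52_P625118).

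Over all probes, 145 were called between genotypes in the cerebellum, 58 without the filter, 93 with every array above background, 232 with all 12 arrays in the fit, 1110 with the rank product, and 1845 unadjusted and 5 adjusted by t-test. In the hippocampus it was 507, 163 without the filter, 282 with all 12 arrays, 326 with the slide as a random block, 1008 with the rank product, and 4274 and 27 by t-test. Between tissues it was 6073 in En2WT and 6085 in En2KO, and 3607 and 3804 with the adjusted t-test. The difference of the effects had 26, 15 with the authors' values and 10 with every array above background. Without any 1 array these counts were 53 to 110 in the cerebellum, 81 to 356 in the hippocampus, 4037 to 6947 and 3461 to 6207 between tissues in En2WT and En2KO, and 10 to 50 for the difference of the effects. 75th percentile scaling moved the median of all probes to 0.102 in the En2WT tissue comparison and -0.105 in the difference of the effects. With 3 arrays per group, the number of arrays limits the precision.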
